A study of Mus musculus with 2 samples.

Results

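Transcript levels of 10 genes of the NF-kB pathway were read from RNA sequencing of mouse embryonic stem cells, among 55414 genes in the count tables. They were taken by gene symbol and comprise the subunit genes Nfkb1, Nfkb2, Rela and Relb, the inhibitor genes Nfkbia, Nfkbie and Tnfaip3, and the target genes Cd40, Traf1 and Icam1. All 10 were found and all 10 passed the expression filter, as did 14871 genes in all. The cells, of the line R1E and labelled wild type, were kept in medium with serum and leukemia inhibitory factor (LIF), and total RNA was taken with TRIzol for NEBNext Ultra libraries. The untreated group, labelled 0 h, and the group given 0.5 µM Adriamycin for 8 h hold 1 library each. Adriamycin, also called doxorubicin, traps topoisomerase II on DNA and so causes strand breaks. The untreated cells have no counterpart at 8 h, so drug, time in culture and any difference between the cultures cannot be told apart.

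NF-kB is a family of dimeric transcription factors held in the cytoplasm by IkB proteins. In the canonical route a kinase complex, IKK, marks IkB for degradation, and RELA with p50 (made from Nfkb1) enters the nucleus. In the non-canonical route receptors such as CD40 stabilise the kinase NIK, which leads to p52 (made from Nfkb2) and RELB. Among the targets are the genes for IkB itself and for the deubiquitinase A20, which shut the signal off again. DNA breaks can also start the canonical route through the kinase ATM, and embryonic stem cells are known for low NF-kB activity.

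NF-kB dimers bind DNA sites of 10 bases called kB sites. RefSeq promoter windows on GRCm38.p6, from 250 bases before to 50 bases after a transcript start, were matched by symbol for 7 members with 10 starts in all. Promoters of Nfkb1, Relb and Cd40 were not used here. Of these windows 3 are printed, picked with the levels known. They set an inhibitor gene and a subunit gene with close kB matches beside the higher target gene Traf1, whose window has none. Capitals mark matches to the stricter form of the site, GGGANNTTCC, on either strand.
Nfkbia, chr12:55492598-55492897, minus strand, GRCm38.p6: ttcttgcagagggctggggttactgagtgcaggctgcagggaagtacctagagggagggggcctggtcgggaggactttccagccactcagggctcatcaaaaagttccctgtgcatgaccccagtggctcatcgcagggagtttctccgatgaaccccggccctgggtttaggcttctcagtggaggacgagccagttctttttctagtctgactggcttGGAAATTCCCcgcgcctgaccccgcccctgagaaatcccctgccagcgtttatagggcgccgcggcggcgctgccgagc
Nfkb2, chr19:46305445-46305744, plus strand, GRCm38.p6: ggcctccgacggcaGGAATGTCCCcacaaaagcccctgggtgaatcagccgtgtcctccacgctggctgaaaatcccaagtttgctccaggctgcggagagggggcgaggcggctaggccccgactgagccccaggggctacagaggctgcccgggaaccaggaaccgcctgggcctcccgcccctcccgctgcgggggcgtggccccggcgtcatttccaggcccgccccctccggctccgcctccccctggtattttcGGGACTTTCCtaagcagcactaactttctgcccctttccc
Traf1, chr2:34961723-34962022, minus strand, GRCm38.p6: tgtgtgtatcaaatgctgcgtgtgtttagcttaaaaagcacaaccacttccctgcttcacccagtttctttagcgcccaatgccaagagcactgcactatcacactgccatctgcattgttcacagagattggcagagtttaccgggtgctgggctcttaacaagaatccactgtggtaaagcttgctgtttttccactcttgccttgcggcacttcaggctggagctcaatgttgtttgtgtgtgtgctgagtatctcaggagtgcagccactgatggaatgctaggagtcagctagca
The Nfkbia match begins at position -29 from the start, and its capitals spell the opposite strand of the form. The Nfkb2 window has 1 match on each strand, beginning at positions -236 and 10 from this start, and the latter lies at position -225 of another Nfkb2 start. The stricter form was in 1.47% of all 32851 windows of the same length. The looser form GGGNNNNNCC, which contains it, was in 50.8% and the kB consensus, of intermediate strictness, in 8.46%. The consensus matched windows of Nfkb2, Nfkbia, Nfkbie and Tnfaip3. Rela and Icam1 matched the looser form alone, and Traf1 matched no form. Sites outside a window, or unlike these forms, would be missed.

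**Figure D1:**
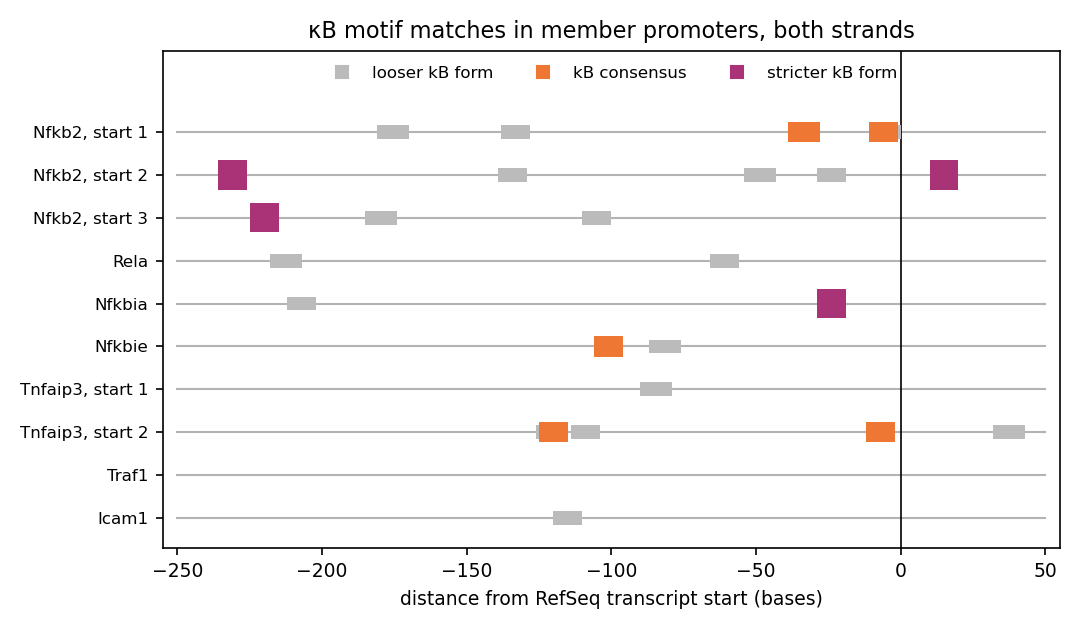
Matches to 3 forms of the kB site on either strand in the 10 RefSeq promoter windows of 7 members, by distance in bases from the transcript start (vertical line). Starts of a gene are numbered by coordinate, and each block covers the 10 bases of a match, or more where matches overlap. The stricter form appears in windows of Nfkb2 and Nfkbia, and the Traf1 line is empty.

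Depth was 41820999 reads untreated and 38561292 after Adriamycin. Levels are CPM, read counts divided by library size after TMM scaling, and ratios are Adriamycin over untreated. A gene was called higher or lower at a ratio of at least 2-fold. Intervals are exact 95% counting intervals, which cover counting error only, since neither condition has a replicate and no test between them was possible. The p53 targets Cdkn1a and Mdm2, which mark a DNA damage response, were 3.10-fold and 7.16-fold higher, and exons of Cdkn1a overlap those of AC167363.2. All 8 stem cell markers were measured, with summed levels of 5864 and 3426 CPM, and 4 of them were called lower. The 4 were Zfp42 (583 and 158 CPM), Nanog (580 and 183 CPM), Esrrb (977 and 469 CPM) and Tdgf1 (1094 and 538 CPM). Pou5f1, a defining factor of the state, had 862 and 604 CPM and was not called.

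Most of the 10 genes differed little between the libraries. Cd40 and Traf1 were called higher, none was called lower, and the other 8 lay between log2 ratios of -0.31 and 0.70. Of all measured genes 17.0% were called higher and 6.95% lower, so 2 of 10 is a share near the background. The median log2 ratio was 0.28 for the members and -0.03 for all measured genes. Calls depended on level. In genes with a mean of 1 to 5 CPM, where Cd40 lies, 31.8% were called higher and 9.51% lower. In genes of 5 to 20 CPM, where Traf1, Nfkb2, Nfkbie and Tnfaip3 lie, the shares were 19.9% and 6.12%. They were 10.3% and 4.94% at 20 to 100 CPM (Rela, Relb, Nfkbia), and 7.02% and 8.89% at 100 CPM or more (Nfkb1, Icam1). In bulk RNA, fewer cells with a transcript and less of it per cell cannot be told apart.

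**Figure D2:**
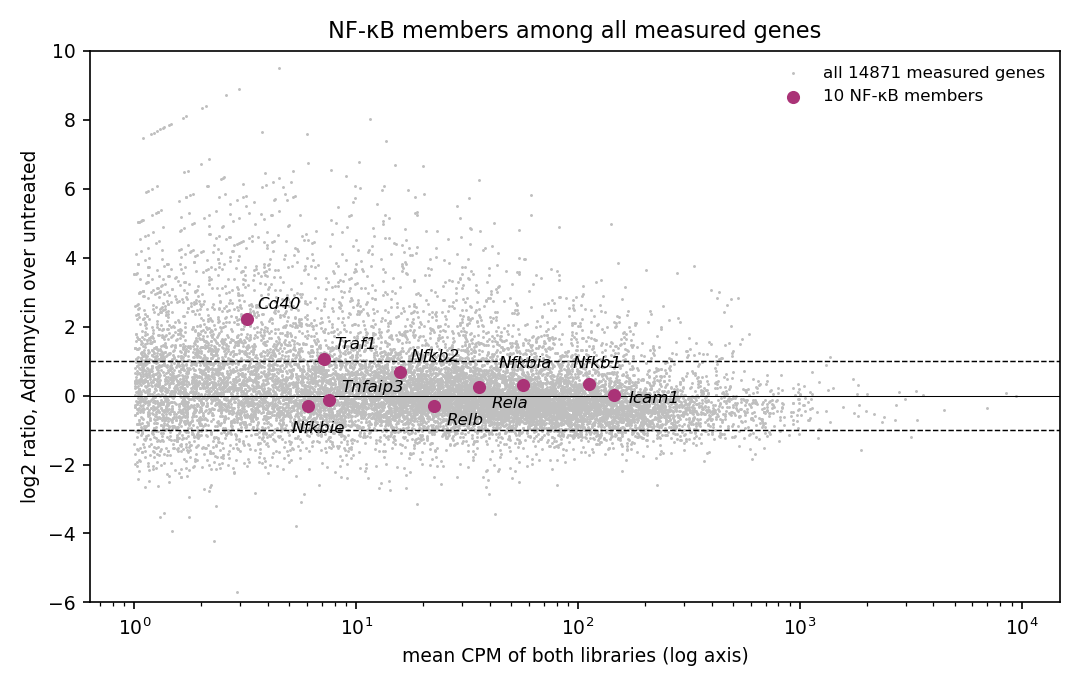
Log2 ratio (Adriamycin over untreated) against mean CPM of both libraries (log axis) for all 14871 measured genes (grey) and the 10 members (purple). Dashed lines mark 2-fold. Cd40 at 2.21 and Traf1 at 1.06 lie above the upper line, and the other 8 members lie between the lines.

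Among the subunits, Nfkb1 on chromosome 3 (135290416 to 135397308, GRCm39) encodes the precursor of p50. It had 3966 reads in the untreated and 5055 in the Adriamycin library, or 99.7 CPM (96.6 to 103) and 125 CPM (121 to 128). The Adriamycin library was the higher, the intervals did not overlap, and the log2 ratio was 0.32 (0.26 to 0.38). Nfkb2 on chromosome 19 (46292759 to 46300824), which encodes the precursor of p52, had 477 and 788 reads, or 12.0 CPM (10.9 to 13.1) and 19.4 CPM (18.1 to 20.8). It stood farthest apart of the subunits, 1.62-fold higher after Adriamycin with a log2 ratio of 0.70 (0.53 to 0.86). Its exons overlap exons of Psd, with 40 and 73 reads, and of AC114539.1, with 19 and 49, both on the other strand.

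Rela, on chromosome 19 (5687511 to 5698158), encodes p65, the main activating subunit of the canonical route. It had 1297 and 1572 reads, or 32.6 CPM (30.9 to 34.4) and 38.8 CPM (36.9 to 40.7). With TMM scaling the intervals did not overlap, and its log2 ratio was 0.25 (0.14 to 0.36). The ratio was 0.13 with upper-quartile scaling and 0.39 with total-count scaling. The 488 measured genes of chromosome 19, which holds Rela and Nfkb2, had a median log2 ratio of 0.29, and the part of this in the ratios of the pair was not tested. Relb on chromosome 7 (19340142 to 19363363), the partner of p52, was the subunit with a lower level after Adriamycin, at 986 and 809 reads, or 24.8 CPM (23.3 to 26.4) and 19.95 CPM (18.6 to 21.4). With TMM scaling the intervals did not overlap, and its log2 ratio was -0.31 (-0.45 to -0.18). The ratio was -0.44 with upper-quartile scaling and -0.17 with total-count scaling.

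Within a library, ratios of genes need no scaling between libraries. The exon length joins all annotated exons of a gene, so the size of such a ratio depends on the annotation. Its change between libraries does not, since the lengths are the same in both. Per kb of exon, Rela stood 1.66-fold above Relb in the untreated library (1.53 to 1.81) and 2.46-fold above it in the Adriamycin library (2.26 to 2.68). Nfkb1 stood 3.16-fold above Nfkb2 (2.87 to 3.48) and then 2.44-fold (2.26 to 2.63). The intervals did not overlap in either case: Rela and Relb were farther apart after Adriamycin, and Nfkb1 and Nfkb2 closer.

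Among the inhibitors, Nfkbia on chromosome 12 (55536195 to 55539432) encodes IkB alpha, which holds RELA and p50 in the cytoplasm and is itself a target. It had 2011 and 2531 reads, or 50.6 CPM (48.4 to 52.8) and 62.4 CPM (60.0 to 64.9). The log2 ratio was 0.30 (0.22 to 0.39), close to that of Rela, and the ratio of Nfkbia to Rela per kb was 2.96 (2.76 to 3.17) and 3.07 (2.88 to 3.27), with overlapping intervals. Its promoter, printed above, holds the stricter kB form near the start.

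Nfkbie on chromosome 17 (45866629 to 45874095), the gene of IkB epsilon, had 266 and 221 reads, or 6.69 CPM (5.91 to 7.54) and 5.45 CPM (4.76 to 6.22). The intervals overlapped, and the log2 ratio was -0.29 (-0.56 to -0.03). With mates counted as pairs, by dividing counts by 2, its interval ran from -0.67 to 0.08. Per kb, Nfkbia stood 14.3-fold (12.6 to 16.3) above Nfkbie and then 21.7-fold (18.9 to 25.0). Tnfaip3 on chromosome 10 (18876658 to 18891405), which encodes A20, had 314 and 291 reads, or 7.89 CPM (7.05 to 8.82) and 7.18 CPM (6.38 to 8.05). The intervals overlapped, and its log2 ratio of -0.14 (-0.37 to 0.10) became 0.01 with total-count scaling.

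Among the targets, Cd40 on chromosome 2 (164897547 to 164914868) encodes a TNF receptor family member of B cells and other antigen-presenting cells that signals through the non-canonical route. It had 45 and 214 reads, or 1.13 CPM (0.825 to 1.51) and 5.28 CPM (4.59 to 6.03). The Adriamycin library was 4.62-fold higher, with a log2 ratio of 2.21 (1.75 to 2.72) that exceeded those of 93.9% of measured genes. Of 12 blood cell markers, 4 were measured and 2, Cd80 and Cd3e, were called higher, with summed levels over the list of 46.2 and 78.3 CPM. Cd68 made up most of the untreated sum, with 36.4 and 39.5 CPM. Ptprc, the marker common to blood cells, had 0 reads in both, with upper interval ends of 0.0928 and 0.0910 CPM. A floor of 3 reads, used below for a ratio, stands at 0.0754 and 0.0740 CPM. Of the nearest measured genes, Ncoa5 at 20.8 kb had a log2 ratio of 0.50 and Cdh22 at 38.6 kb one of 0.86 on 37 and 69 reads, and neither reached 2-fold.

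Traf1 on chromosome 2 (34831762 to 34851784) encodes an adaptor that binds TRAF2 at TNF receptors and is a known NF-kB target. It had 184 and 391 reads, or 4.63 CPM (3.98 to 5.35) and 9.64 CPM (8.71 to 10.6). The intervals did not overlap, and the 2.08-fold higher level (log2 ratio 1.06, 0.80 to 1.32) lay just past the threshold, falling to a log2 ratio of 0.94 with upper-quartile scaling. Neither neighbour was called higher: Phf19, 27.7 kb away, was 2.91-fold lower (722 and 253 reads), and Gm13450, 2.97 kb away, had a log2 ratio of 0.17. Per kb, Traf1 stood at 0.480 of Tnfaip3 (0.398 to 0.578) in the untreated library and at 1.10 of it (0.944 to 1.29) in the Adriamycin library.

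Icam1 on chromosome 9 (20927281 to 20940113) encodes a cell adhesion molecule that binds leukocyte integrins and is a classical target in activated endothelium. It had 5739 and 5935 reads, or 144 CPM (141 to 148) and 146 CPM (143 to 150). The intervals overlapped, and the log2 ratio of 0.02 (-0.03 to 0.07) became -0.10 with upper-quartile scaling. Its exons overlap those of Gm47079, which had 11 reads and 1 read. Of 6 endothelial markers, 5 were measured, with summed levels over the list of 138 and 183 CPM, Tek was called higher, and Emcn had 0 reads in both libraries. The fibroblast list, kept for feeder cells, had 7 of 12 measured, 3 called higher and summed levels of 63.9 and 149 CPM. The 3 called higher were Col1a1 (214 and 1295 reads), Fbln2 (247 and 2177) and Bgn (115 and 371). Col3a1, Dcn, Lum, Postn and Fap had 0 reads in both. The part of these cell types in the members' levels was not tested.

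**Figure D3:**
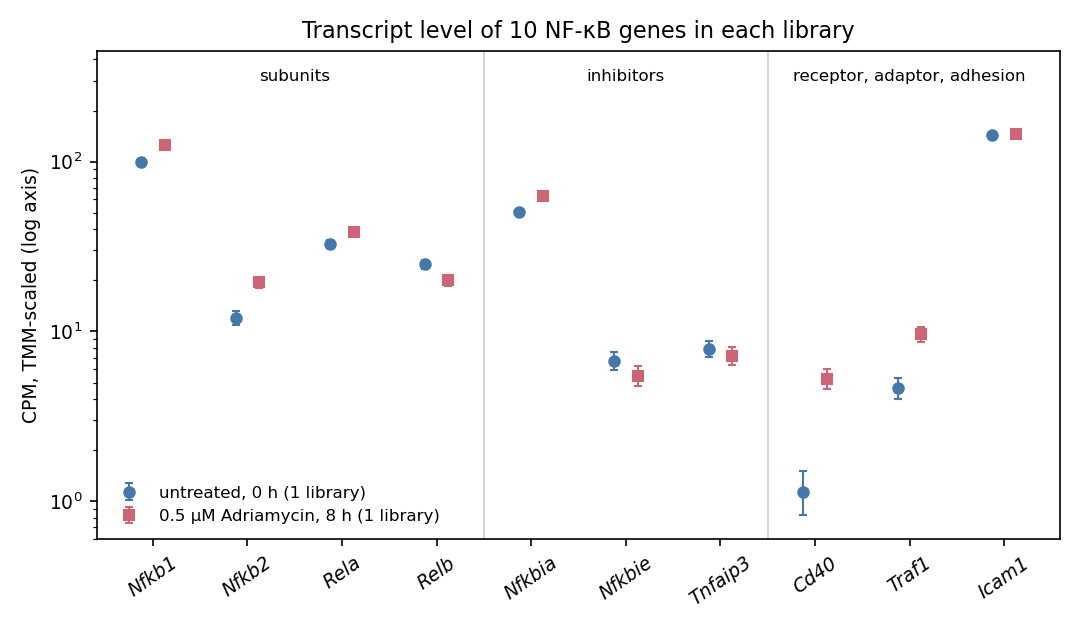
TMM-scaled CPM (log axis) of each member in the untreated library (blue circles) and the Adriamycin library (red squares), 1 library each, with exact Poisson 95% counting intervals. The points of Cd40 (1.13 and 5.28 CPM) stand farthest apart, and those of Icam1 (144 and 146 CPM) lie almost level.

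Levels per kb of exon allow a rough comparison between genes, since the length joins all annotated exons and can exceed that of the transcript present. They spanned from 0.332 CPM per kb for Cd40 to 33.1 for Icam1 in the untreated library. Icam1 was followed by Nfkbia (31.4), Rela (10.6), Nfkb1 (8.27), Relb (6.38), Nfkb2 (2.62), Nfkbie (2.20), Tnfaip3 (1.09) and Traf1 (0.525). Counting intervals overlapped between the neighbours Icam1 and Nfkbia and between Nfkb2 and Nfkbie. In the Adriamycin library Nfkbia (38.8) stood above Icam1 (33.6), and Cd40 (1.55) had passed both Traf1 (1.09) and Tnfaip3 (0.993). Rela, Nfkb1, Relb, Nfkb2 and Nfkbie kept ranks 3 to 7. Intervals overlapped there between Nfkbie and Cd40 and between Traf1 and Tnfaip3.

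**Figure D4:**
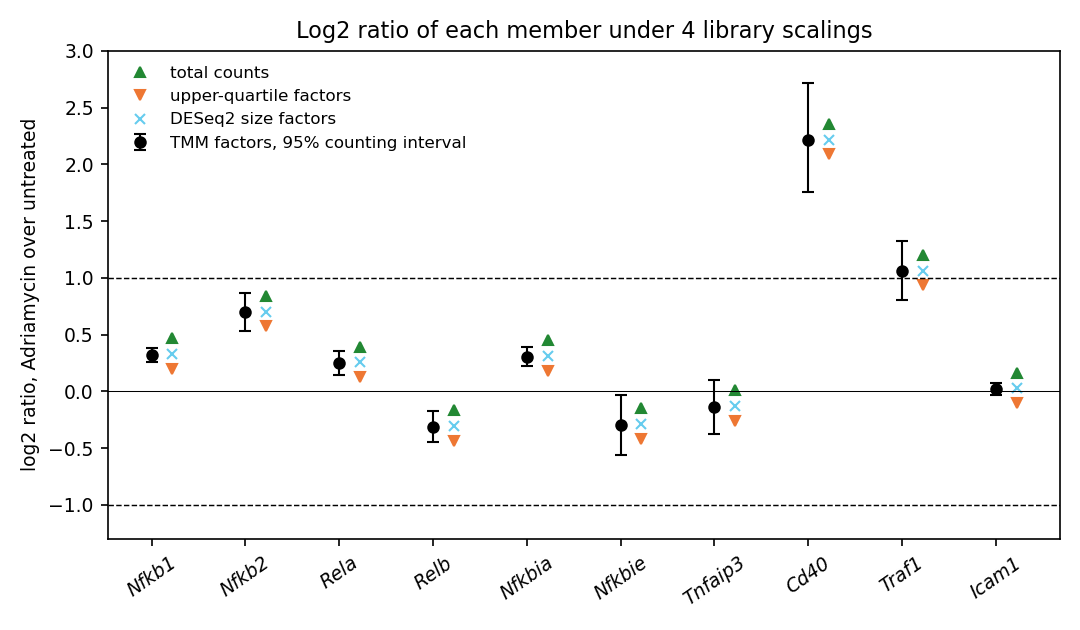
Log2 ratio (Adriamycin over untreated) of each member with its 95% counting interval under TMM scaling (black), and its value under 3 other library scalings (coloured). Dashed lines mark 2-fold. Cd40 lies above the upper line under all 4 scalings, Traf1 falls to 0.94 with upper-quartile factors, and Tnfaip3 and Icam1 change sign between scalings.

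Around the 10 members, 113 other genes of the pathway in 8 lists by role were read in the same way. Of these, 90 were measured. Of the 90, 22 (24.4%) were called higher and 9 (10.0%) lower, against 17.0% and 6.95% of all measured genes. For 8 of the 90 the untreated level was under 1 CPM, so they passed the filter through a higher level in the Adriamycin library, and 7 of them are among the 22. In the other direction 2 genes, both among the 9, were under 1 CPM after Adriamycin and passed through the untreated library. The filter favours the direction of such calls. Of all measured genes 902 passed in the first way, with 765 called higher, and 262 in the second, with 165 called lower. The members and lists were chosen with results of these data known.

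Of the 5 relatives of the members, all measured, 0 were called higher and 2 (40.0%) lower, against 17.0% and 6.95% of all measured genes. Their median log2 ratio was -0.49. Bcl3, an atypical IkB that acts in the nucleus with p50 and p52 dimers, had 3365 and 654 reads, or 84.6 and 16.1 CPM. It was 5.24-fold lower, with a log2 ratio of -2.39 (-2.51 to -2.27), and part of its exons lies in Gm16175. Nfkbid, another nuclear IkB, had 361 and 177 reads, or 9.08 and 4.37 CPM, and was 2.08-fold lower (log2 ratio -1.05, -1.32 to -0.79). Nfkbid fell short of 2-fold with total-count scaling (log2 ratio -0.91). Bcl3 kept its call under every setting that retained it. Leaving out genes with overlapping exons removed it, which does not test its ratio. Rel, the gene of the subunit c-Rel, had 233 and 175 reads and a log2 ratio of -0.44, and Nfkbib, for IkB beta, had one of -0.49 with exons overlapping Sirt2 and Ccer2.

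Of 11 measured kinases, 3 (27.3%) were called higher and 0 lower, against 17.0% and 6.95% of all measured genes. Their median log2 ratio was 0.51. Ikbke and Map3k14 kept their calls under every setting that retained them. Leaving out genes with overlapping exons removed both, which does not test their ratios. Ikbke, for the IKK-related kinase IKK epsilon, had 97 and 676 reads, or 2.44 and 16.7 CPM. It was 6.81-fold higher, with a log2 ratio of 2.77 (2.46 to 3.10), and shares exon sequence with Gm28913 and Gm28914. Map3k14, for the NIK kinase of the non-canonical route, had 225 and 1207 reads, or 5.66 and 29.8 CPM. It was 5.25-fold higher, with a log2 ratio of 2.39 (2.19 to 2.61), and part of its exons lies in 1700028N14Rik. Map3k8, for the kinase TPL2, which binds the p50 precursor, was 2.03-fold higher on 53 and 110 reads (0.54 to 1.53 on the log2 scale). Its call was lost with upper-quartile factors (log2 ratio 0.90), with a pseudocount of 2 reads, with the filter of at least 5 CPM and with the rule on intervals of halved counts. The core IKK complex did not reach 2-fold, with log2 ratios of 0.28 for Chuk, 0.45 for Ikbkb and 0.22 for Ikbkg, whose exons overlap those of G6pdx.

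Of 20 adaptors and ubiquitin ligases, 3 (15.0%) were called higher and 0 lower, against 17.0% and 6.95% of all measured genes. Their median log2 ratio was -0.08. Traf3, whose product keeps NIK levels low, had 1581 and 3497 reads and was 2.17-fold higher, a log2 ratio of 1.12 that was 0.995 with upper-quartile factors and then not called. With those factors Malt1, a protease adaptor, was called lower (log2 ratio -1.08, and -0.96 with TMM). Rbck1, for the HOIL-1 subunit of the linear ubiquitin ligase, had 7168 and 17847 reads and was 2.44-fold higher, while the other subunit genes Rnf31 and Sharpin had log2 ratios of -0.40 and 0.07, with exons of Rnf31 overlapping Irf9. Traf5 was 2.46-fold higher on 58 and 146 reads, and Gm26879 and Mir3473c overlap its exons. Of the brakes, 2 of 11 (18.2%) were called higher and 0 lower, with a median of -0.16. Cyld, a deubiquitinase that dampens the pathway, had 1057 and 2800 reads and was 2.60-fold higher. Pdlim2, a nuclear ubiquitin ligase for RELA, was 2.16-fold higher (169 and 373 reads). With upper-quartile factors Pdlim2 was not called (log2 ratio 0.99).

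Of 14 measured receptors, 5 (35.7%) were called higher and 2 (14.3%) lower, against 17.0% and 6.95% of all measured genes. Their median log2 ratio was 0.41. Tnfrsf9, the lymphocyte receptor 4-1BB, had 40 and 159 reads and was 3.86-fold higher. Eda2r, an ectodysplasin receptor and a known p53 target, had 2452 and 6273 reads and was 2.51-fold higher. Tnfrsf13c, the receptor of the B cell factor BAFF, was 4.07-fold lower (169 and 42 reads), and Ngfr, the neurotrophin receptor p75, was 2.55-fold lower (3110 and 1245 reads). The TNF receptor genes parted, Tnfrsf1a being 2.42-fold higher (286 and 707 reads) and Tnfrsf1b at a log2 ratio of -0.13. Il1r1, for an interleukin-1 receptor, was called on 38 and 81 reads but passed the filter through the Adriamycin library, and was not called with upper-quartile factors.

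Ligand genes were few. Of 12 listed, 6 were measured, and Tnf, Lta and Cd40lg, the ligand of CD40, had 0 reads in both libraries. Of the 6, 1 was called higher and 3 lower. Of all measured genes 17.0% were called higher and 6.95% lower. In genes with a mean of 1 to 5 CPM, where the measured ligands other than Tnfsf12 lie, the shares were 31.8% and 9.51%. Moreover 3 of the ligand calls, Tnfsf4, Ltb and Tnfsf11, are of genes that passed the filter through 1 library, which favours their direction. With the filter of at least 5 CPM 0 ligands were higher and 1 lower, Tnfsf12. Tnfsf4, for the OX40 ligand, had 0 and 106 reads, at least 34.7-fold higher against a floor of 3 untreated reads. Ltb, for lymphotoxin beta, was 5.14-fold lower (108 and 21 reads), Tnfsf11, for RANKL, 5.68-fold lower (97 and 17 reads) and Tnfsf12, for TWEAK, 3.07-fold lower (795 and 264 reads). Exons of Tnfsf12 overlap those of Tnfsfm13.

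Of 30 further target genes, 16 were measured, and 8 were called higher and 1 lower. Of all measured genes 17.0% were called higher and 6.95% lower. These shares were 31.8% and 9.51% in genes with a mean of 1 to 5 CPM. Of the 8 higher targets, 5 passed the filter through the Adriamycin library alone, and these 5 lie in that range. The 3 other higher ones were Tap1, Psmb9 and Tnfrsf9, and the lower one was Irf1, 2.09-fold, which did not reach 2-fold with total counts and overlaps Gm17334. Tap1, for a peptide transporter of antigen presentation, had 213 and 6465 reads, or 5.36 and 159 CPM, a log2 ratio of 4.89 (4.70 to 5.10). Psmb9, for an immunoproteasome subunit, overlaps it on the other strand, had 128 and 571 reads and was 4.36-fold higher. Cxcl10, for a chemokine, was at 10 and 265 reads, and Art3, whose exons it overlaps, at 4 and 337. Nos2, for inducible nitric oxide synthase, had 12 and 161 reads, and Csf1, for a macrophage growth factor, 28 and 218. Plau had 30 and 210 reads and Ptgs2 had 16 and 74. Cytokine genes of the list other than Cxcl10 and Csf1 did not pass the filter. Among them Il6 had 0 and 2 reads, Ccl2 6 and 0, Cxcl1 0 and 9 and Ccl5 0 and 0. Measured targets that limit cell death or oxidative stress did not reach 2-fold, with log2 ratios of -0.86 for Birc3, -0.08 for Bcl2l1, 0.50 for Cflar and -0.76 for Sod2.

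Of 14 genes through which DNA damage reaches NF-kB, 1 (7.14%) was called higher and 1 (7.14%) lower. These shares were 17.0% and 6.95% of all measured genes. The median log2 ratio of the 14 was -0.37. Pidd1, a scaffold that brings RIPK1 and NEMO together after damage and a known p53 target, had 2098 and 10277 reads, or 52.8 and 253 CPM. It was 4.80-fold higher, with a log2 ratio of 2.26 (2.20 to 2.33). Cul1, a subunit of the ligase that marks IkB, was 2.01-fold lower (7504 and 3809 reads), did not reach 2-fold with total counts or DESeq2 factors, and has exons overlapping those of A930035D04Rik. Atm had a log2 ratio of -0.03 and Ripk1 one of -0.39, and exons of Ripk1 overlap those of Serpinb6a and Gm17084.

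**Figure D5:**
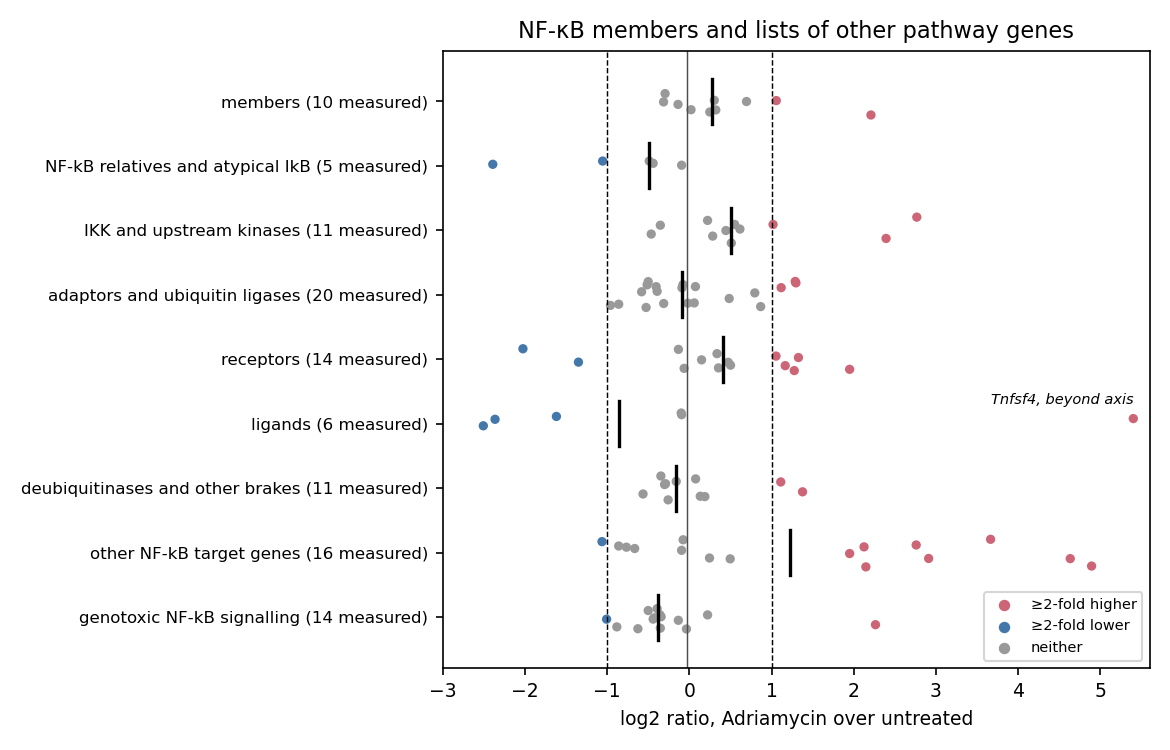
Log2 ratio (Adriamycin over untreated) of every measured gene in the member list and 8 lists of other pathway genes, with list medians as black bars and the median of all measured genes as a thin vertical line. Dashed lines mark 2-fold, red points are higher, blue points lower, and Tnfsf4 (0 and 106 reads) is drawn at the edge. Vertical scatter within a list is for legibility. The relatives have 2 lower genes and no higher one, and the kinases 3 higher and no lower one.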

How the data were processed

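RNA-seq of 2 libraries was analysed, 1 per condition, grouped by the treatment label. The deposited tables hold raw read counts. Counting was by featureCounts 2.0.3, per the file headers, from pairs with both ends aligned. It covered exons of GRCm39 (annotation release 105) and had no strand setting. Reads in exons that overlap on the 2 strands could therefore not be assigned by strand. Whether such reads were counted or left out was not examined. Versions in the submitters' processing notes are featureCounts 1.6.0, HISAT2 2.0.4, DESeq2 1.16.1 and Trim Galore 0.3.4, with FastQC and the builds mm10 and mm9. Where notes and headers differ, the headers were followed.

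More genes had a count of 2 than of 1 (2067 and 1629 untreated, 2266 and 1719 after Adriamycin), as counting mates separately would give. Intervals were therefore also computed on counts divided by 2. PCR copies are not independent molecules either, so all intervals are too narrow.

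Symbols were matched by Ensembl identifier to GENCODE M21 for 52081 of 55414 genes, with Skp1 found as Skp1a. Library sizes (41820999 and 38561292 reads) were scaled by TMM factors of 0.951 and 1.05 from edgeR 4.0.16 in R 4.3.3. Python 3.11.15 with scipy 1.17.1, pandas 2.3.3, numpy 2.4.6 and matplotlib 3.10.9 gave CPM, ratios (pseudocount of 0.5 read), intervals (conditional binomial, Clopper-Pearson, for ratios, and Poisson for levels) and figures. Measured genes are those whose CPM averaged 1 or more. The ratio and interval code was tested on simulated data. Promoters are those of RefSeq on GRCm38.p6, a build other than that of the counts, and were used for sequence alone. The kB consensus was added to the motif search after the data were seen. Protein sequences were not used here.

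The members and lists were chosen with earlier results of these data known. Named genes are all members, up to 4 called genes of each list whose interval lies farthest from no difference, genes overlapping a member and the nearest measured neighbours of called members. Uncalled list genes, genes with few reads, Tnfrsf1a, Il1r1, Psmb9, Plau, Ptgs2, Irf1, marker genes and genes overlapping list genes were named after their values were seen. Alternatives were other scalings (total counts, DESeq2 1.42.0 size factors, upper quartile), filters, a pseudocount of 2 reads, other call rules and leaving out genes with overlapping exons.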

Additional observations from a re-analysis of the deposited data

How the results depend on the processing

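With upper-quartile factors Traf1, and with a filter of at least 5 CPM Cd40, was no longer called, which left 1 member called higher in place of 2. Total counts moved the median log2 ratio of all measured genes by 0.15 and upper-quartile factors by -0.12, and the members moved with it. Of all measured genes, 2531 were called higher and 1034 lower. These counts were 8514 and 4292 with no CPM filter and 3815 and 2805 with a 1.5-fold rule, and 1417 were higher with the filter of at least 5 CPM. Of the other pathway genes, 22 were called higher and 9 lower. The counts were 12 higher with the filter of at least 5 CPM, 15 lower with the 1.5-fold rule and 5 lower without genes with overlapping exons. Each of these follows from the genes or the threshold the setting changes. With TMM factors, 8 of 10 counting intervals of the members excluded an equal level, and 7 with counts divided by 2, where that of Nfkbie did not. The share of all measured genes for which this holds is not given here, so the count does not set the members apart. It was not repeated with other scalings. Single libraries limit all values: differences between cultures are not measured, and counting intervals are the sole error given. No paired analysis was possible because each condition has 1 library.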

Other observations

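Among all 10886 measured genes with a RefSeq promoter window, 17.2% were called higher and 5.96% lower. Of the 179 with the stricter kB form in a window, 31 (17.3%) were higher and 16 (8.94%) lower, with a median log2 ratio of -0.08, against -0.02 for the genes without it. Of the 1368 with the kB consensus, 19.5% were higher and 7.38% lower, against 16.9% and 5.76% of those without. Genes with and without the consensus had median levels of 26.7 and 29.0 CPM. A gene counted as matching if any of its windows matched, so genes with more starts had more occasions to match. The number of starts was not compared between the groups. These shares describe letters in windows of 300 bases and not binding.

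Cd80, for a ligand of CD28 on antigen-presenting cells, was named after its values were seen. It had 195 and 1208 reads, or 4.90 and 29.8 CPM, a log2 ratio of 2.60.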
